A study of Mus musculus with 6 samples.

Results

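Fatostatin added together with IL4 was compared with IL4 alone in mouse macrophages, using 2 of the 6 RNA sequencing libraries of the study. The comparison covers every gene for which 1 or more of the 6 libraries reached a CPM of 1, a count scaled by library size. This kept 11898 of the 16775 genes in the deposited tables. The study's title asks about SREBP2 and alternative activation of macrophages, so genes of sterol metabolism and of the IL4 programme are described before the others. Both libraries came from bone-marrow-derived macrophages of C57BL/6 mice, grown for 5 days in medium with 10% serum and M-CSF at 10 ng/ml, which drives marrow precursors into macrophages. One library came from cells given IL4 for 24 hours and the other from cells given IL4 and fatostatin for the same 24 hours, and 1 ug of RNA entered each library. The dose of either agent, the number of mice and any pooling of mice are not given in the sources used here. The other 4 libraries, from cells given IL4 with betulin, 25-HC, PF429424 or 1,10-Phen, are used to scale the counts and to show where a fatostatin level lies among all 6. No library without IL4 is in the series, so no gene can be called induced or repressed by IL4 from these data.

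Fatostatin is known as a small molecule that holds SREBP transcription factors in the endoplasmic reticulum by acting on their escort protein SCAP. SREBP2 switches on the enzymes of cholesterol synthesis and genes of sterol uptake, while SREBP1 is better known for fatty acid synthesis. IL4 acts through its receptor and the transcription factor STAT6, and in mouse macrophages it is known to turn on arginase, chitinase-like proteins and the mannose receptor.

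Each treatment has a single library, so there is no replicate check and no test, and each difference is one between these libraries and not between treatments. Values are CPM after TMM scaling, which corrects library sizes over the 6 libraries, and ratios are log2 ratios of the fatostatin to the IL4 library with 2 prior counts added in proportion to library size. Intervals are exact 95% counting intervals (Clopper-Pearson), which cover counting error and not variation between cultures. A gene is called at least 2-fold higher or lower when its log2 ratio is at least 1 in size and its interval excludes 0. The IL4 library held 20181396 estimated counts and the fatostatin library 20761587, and 3 counts, the floor used for genes at 0, equal 0.140 and 0.141 CPM.

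The libraries carried the markers of macrophages. All 14 macrophage markers were compared, none differed 2-fold, and their summed level was 16668 CPM with IL4 and 17756 CPM with fatostatin. Csf1r, the M-CSF receptor, was at 1968 and 1487 CPM, and Adgre1, which encodes F4/80, at 946 and 776 CPM. B cell markers summed to 5.73 and 3.72 CPM, and Ms4a1 had 8 counts with IL4 and 0 with fatostatin. T and NK cell markers summed to 276 and 354 CPM, or 9.97 and 9.84 CPM without Il7r, with Cd3e, Cd3g and Ncr1 at 0 counts in the fatostatin library. Stromal and endothelial markers were not absent and summed to 158 and 146 CPM. Of the 10 compared, 5 lay above 0 and 5 below, and none was called. Among them Col1a1 was at 47.8 and 35.1 CPM and Pecam1 at 25.4 and 36.4 CPM. In a bulk library, fewer cells of a type and less RNA per cell cannot be told apart, and this holds for every gene group below.

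Most genes had nearly the same level with and without fatostatin. Of the 11898 genes, 74.8% lay within 1.2-fold and 93.1% within 1.5-fold, and the median log2 ratio was 0.01. At least 2-fold differences numbered 104 higher (0.874% of the genes compared) and 126 lower (1.06%), together 1.93%. Read as a background for the gene groups below, 6181 of all genes lay above 0 and 5711 below. When log2(FPKM + 1) replaced scaled counts, the at least 2-fold differences were 23 higher and 47 lower. Most of the calls on scaled counts fell on weakly expressed genes: 75 of the higher and 77 of the lower genes had a mean CPM under 5, whereas among the 4061 genes with a mean CPM of 50 or more, 4 were higher and 6 lower. The 4 abundant genes that were higher are Spp1, Fabp4, Ccl7 and Vegfa, and the 6 that were lower are Mmp8, Ptgs1, Tgfbi, Ugt1a7c, Notch1 and Plxdc2, all named here because the counts are small.

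**Figure D1:**
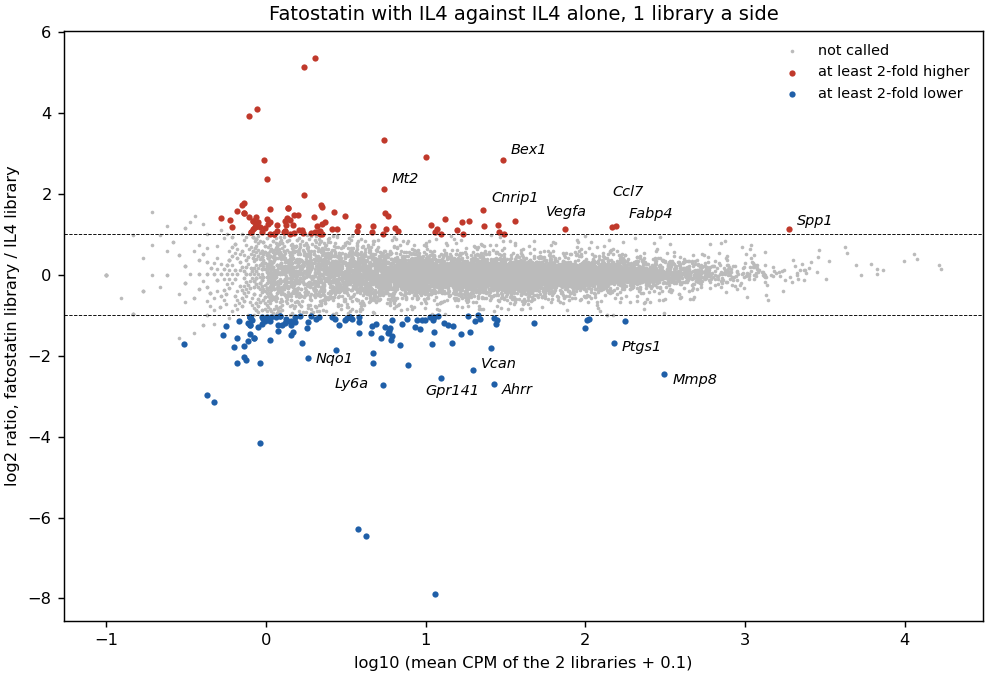
The log2 ratio of the fatostatin to the IL4 library (vertical axis) is plotted against the log10 of the mean CPM of both libraries plus 0.1 (horizontal axis) for 11898 genes, each a point. Red and blue points are the 104 genes called higher and the 126 called lower, dashed lines mark 2-fold, and the grey band of uncalled genes narrows to the right as counts grow.

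Genes of the SREBP2 pathway lay close to their level with IL4 alone. None of the 20 cholesterol synthesis genes differed 2-fold, 8 were above 0 and 12 below, and the median log2 ratio was -0.05 beside 0.01 for all genes. Hmgcs1, a synthase of the early steps, was at 49.4 CPM with IL4 and 54.96 CPM with fatostatin. Sqle, the squalene epoxidase, was at 12.9 and 12.2 CPM. The highest ratio of the list belonged to Dhcr7, a reductase of the last step, at 52.02 CPM with IL4 and 67.9 CPM with fatostatin, the highest of the 6 libraries (log2 ratio 0.38). The summed CPM of the 20 genes was 391.9 with IL4 and 399.7 with fatostatin, between 293 with 1,10-Phen and 407 with betulin.

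The regulators of the pathway also lay near their IL4 level. None of 13 genes of SREBP control and sterol uptake differed 2-fold. Srebf2 was at 83.9 and 81.97 CPM, Srebf1 at 67.7 and 70.02 CPM, and Scap at 17.9 and 17.1 CPM. Insig1, which holds SCAP back when sterols are plentiful, was at 35.3 and 39.6 CPM. The lowest log2 ratio of the list, -0.40, belonged to the sterol carrier Stard4, at 17.5 CPM with IL4 and 13.2 CPM with fatostatin.

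Fatty acid synthesis and sterol export together held a single call. Of 16 fatty acid synthesis genes only Scd1, a stearoyl-CoA desaturase, was at least 2-fold lower, against 1.06% of all genes. It was on low levels of 1.26 and 0.565 CPM (log2 ratio -1.03, interval -2.27 to -0.13), and this call is lost with a prior count of 10 or with log2(FPKM + 1). Its relative Scd2 was at 25.9 and 19.7 CPM, and Fasn, the fatty acid synthase, at 84.2 and 86.3 CPM. Among 12 genes of LXR, the nuclear receptor that senses oxysterols, and of its targets, none differed 2-fold. Nr1h3, which encodes LXR alpha, was at 36.6 CPM with IL4 and 53.4 CPM with fatostatin, the highest of the 6, and the cholesterol exporter Abca1 was at 36.1 and 46.6 CPM.

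Genes of lipid storage and fatty acid handling lay mostly above their IL4 level. Of 27 such genes, 2 were at least 2-fold higher, against 0.874% of all genes, none was lower, 21 lay above 0, and the median log2 ratio was 0.21. Fabp4, a fatty acid carrier of macrophages and fat cells, was at 93.3 CPM with IL4 and 217 CPM with fatostatin (log2 ratio 1.22, interval 1.14 to 1.30). Hilpda, a lipid droplet protein that restrains triglyceride breakdown, was at 14.02 and 32.5 CPM (1.21, interval 1.01 to 1.41). Neither gene stood outside the other libraries: Fabp4 reached 247, 79.4, 161 and 17.4 CPM with betulin, 25-HC, PF429424 and 1,10-Phen. Short of 2-fold, the related carrier Fabp5 was at 202 and 389 CPM, the droplet coat protein Plin2 at 735 and 1191 CPM, and the monoglyceride lipase Mgll at 17.5 and 28.9 CPM. Pparg, a lipid-sensing nuclear receptor, was at 108 and 149 CPM, and its target Cd36, a fatty acid translocase, at 2426 and 3276 CPM.

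Lysosomal genes leaned the same way by smaller amounts. None of 43 differed 2-fold, 36 lay above 0, and the median was 0.19. Ctsd and Ctsl, proteases of the lysosome, were at 9423 and 2283 CPM with IL4 and at 13468 and 3503 CPM with fatostatin. The proton pump subunits Atp6v0d2 and Atp6v0a1 were at log2 ratios of 0.65 and 0.58, whereas Ctsc, another protease, was at -0.59. Atp6v0d2 also belongs to the osteoclast markers, a list of multinucleated bone-resorbing cells that share the macrophage lineage. Of its 9 compared members 7 lay above 0 and none was called, the median was 0.61, and the summed level was 1330.1 and 1942 CPM. Within it, Mmp9, Ctsk, Itgb3 and Acp5 were at 0.80, 0.67, 0.63 and 0.61, and the part of these markers in the lysosomal values was not tested.

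**Figure D2:**
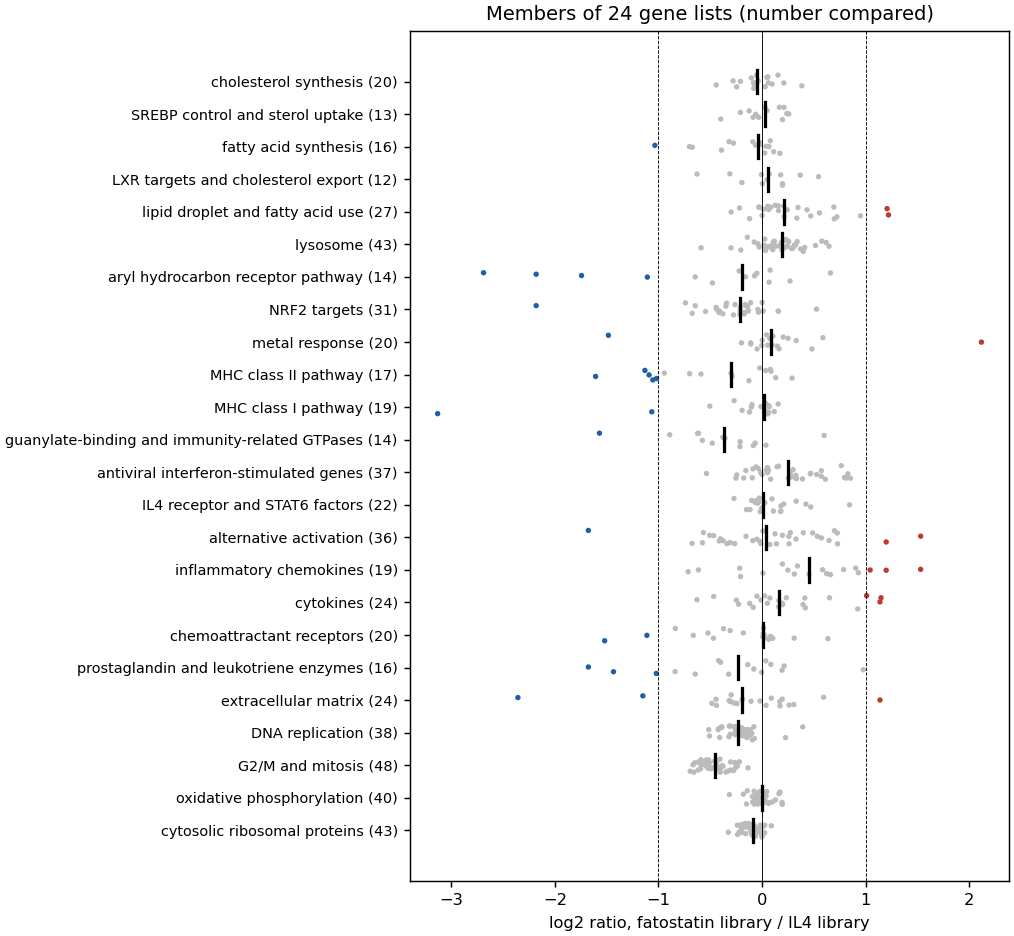
Each point is a gene of one of 24 lists (rows, with the number of genes compared) at its log2 ratio of the fatostatin to the IL4 library (horizontal axis); black bars are list medians, and red and blue points are genes called at least 2-fold higher or lower. The medians of cholesterol synthesis and oxidative phosphorylation sit near 0, the aryl hydrocarbon receptor and MHC class II lists hold 4 and 5 blue points, and the whole G2/M list lies left of 0.

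Some targets of the aryl hydrocarbon receptor were among the lowest genes. This receptor, AHR, pairs with ARNT when it binds flat aromatic ligands and switches on detoxifying enzymes at sites with the core GCGTG, and AHRR is the repressor it induces against itself. The receptor genes were near their IL4 level, with Ahr at 21.9 and 20.8 CPM and Arnt at 77.3 and 81.5 CPM. Below them, Ahrr was at 46.01 CPM with IL4 and 7.06 CPM with fatostatin, and at 18.5, 14.98, 7.34 and 9.53 CPM with betulin, 25-HC, PF429424 and 1,10-Phen. The fatostatin library was thus the lowest of the 6, close to the PF429424 library, and the IL4 library the highest (log2 ratio -2.69, interval -2.96 to -2.46).

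The enzymes of the list followed in part. Nqo1, a quinone reductase, was at 7.59 CPM with IL4 and 1.600 CPM with fatostatin (-2.18), while the other 4 libraries ranged from 2.69 CPM with 25-HC to 22.9 CPM with 1,10-Phen. Cyp1b1, a cytochrome P450 of the classical AHR response, was at 10.6 and 3.11 CPM (-1.74). Ugt1a7c, which attaches glucuronic acid to drugs and phenols, was at 139 and 64.6 CPM (-1.11, interval -1.202 to -1.02). Ugt1a6a and Ugt1a6b share exons with Ugt1a7c, so counts may be split among these 3 genes, and their log2 ratios were -0.65 and -0.48. Tiparp, a further feedback gene of AHR, was only at -0.22, with 63.99 and 54.9 CPM. Cyp1a1, another cytochrome P450 of the list, had 1 count with IL4 and 0 with fatostatin and was not compared. In all, 4 of the 14 compared genes were at least 2-fold lower, against 1.06% of all genes, and none was higher. Of the 14, 10 lay below 0 and 4 above, up to 0.66, and the median was -0.19. The fatostatin library was the lowest of 6 for 6 of the 14.

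The promoters of Ahrr and Cyp1b1 are shown because they belong to the 2 classical AHR genes with the lowest ratios and a sequence match. Each is the 250 bases before the RefSeq start site (GRCm38.p6), and capitals mark GCGTG or its reverse complement. Ahrr lies on the minus strand at chr13:74292332-74292581 and holds 3 matches, which begin 107, 82 and 27 bases before the start site. Cyp1b1 lies on the minus strand at chr17:79715062-79715311 and holds 1 match, 76 bases before it.
Ahrr promoter: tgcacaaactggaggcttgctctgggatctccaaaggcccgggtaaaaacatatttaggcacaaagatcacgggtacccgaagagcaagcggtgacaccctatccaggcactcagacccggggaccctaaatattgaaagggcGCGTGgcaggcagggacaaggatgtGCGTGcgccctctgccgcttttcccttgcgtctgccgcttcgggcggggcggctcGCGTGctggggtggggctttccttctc
Cyp1b1 promoter: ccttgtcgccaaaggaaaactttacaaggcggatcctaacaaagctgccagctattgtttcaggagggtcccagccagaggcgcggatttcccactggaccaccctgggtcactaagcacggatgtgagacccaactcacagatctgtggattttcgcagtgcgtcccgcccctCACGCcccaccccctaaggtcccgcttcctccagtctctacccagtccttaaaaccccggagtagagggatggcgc
The window of Tiparp also held 1 match, and those of Nqo1 and Ugt1a7c held none. Of 12227 promoters of the compared genes, 44.1% had GCGTG on either strand, so a single match is common.

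NRF2, the regulator of the response to oxidants, also drives Nqo1. Of 31 genes of the NRF2 list 26 lay below 0, with a median of -0.21, but Nqo1 was the 1 gene called lower, against 1.06% of all genes. The glutamate-cysteine ligase subunit Gclm was at 149 and 89.1 CPM, malic enzyme Me1 at 5.91 and 3.67 CPM, and sulfiredoxin, Srxn1, at 159 and 119 CPM, each the lowest of the 6 libraries. The fatostatin library was the lowest of 6 for 15 of the 31 genes. Hmox1, heme oxygenase, went the other way at 837 and 1204 CPM (0.53).

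Of the metal response genes, the metallothionein Mt2 was higher and most others lay near their IL4 level. Metallothioneins bind zinc and copper and are switched on by the zinc sensor MTF1 through metal response elements. Mt2 had 42 counts with IL4 and 187 with fatostatin, or 1.96 and 8.800 CPM (log2 ratio 2.12, interval 1.68 to 2.69). It lay at 162, 1.82, 6.104 and 161 CPM with betulin, 25-HC, PF429424 and 1,10-Phen, so the fatostatin value was far from the highest of the series. Mt1 was at 72.7 and 102 CPM (0.48), and the zinc exporter Slc30a1, a classical MTF1 target, at 52.3 and 55.1 CPM. Slc39a8, a zinc and manganese importer, was at 6.89 and 10.4 CPM, the highest of the 6. Among 20 genes 1 was called higher and 1 lower, against 0.874% and 1.06% of all genes, and the median was 0.08. The gene called lower was Mt3 at 0.699 and 0.188 CPM, a call lost with a prior count of 10 or with FPKM. No metallothionein promoter is shown, because GENCODE vM21 places further starts of Mt2 46 and 242 bases downstream of the RefSeq start site and of Mt1 122 and 152 bases downstream, so the 250-base windows may miss the sequence next to the start in use.

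Of 17 iron genes 10 lay above 0 and 7 below. Slc40a1, ferroportin, the only known cellular iron exporter, was at 181 CPM with IL4 and 91.2 CPM with fatostatin, just short of 2-fold (log2 ratio -0.98) and past it with library totals. Tfrc, the transferrin receptor, was at 571 and 729 CPM, the highest of the 6. Cd163, a scavenger of haemoglobin, was at 13.5 and 10.1 CPM (-0.41). Cp, ceruloplasmin, was the 1 iron gene called, against 1.93% of all genes. It was lower at 1.44 and 0.659 CPM (-1.03), and that call is lost with a prior count of 10 or with FPKM.

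The MHC class II pathway was lower from its master regulator to its peptide-binding chains. CIITA is a coactivator that assembles on class II promoters with RFX and NF-Y and without which they are almost silent. Ciita was at 9.08 CPM with IL4 and 2.92 CPM with fatostatin (log2 ratio -1.61, interval -2.07 to -1.22), and at 3.704, 1.14, 2.07 and 0.696 CPM with betulin, 25-HC, PF429424 and 1,10-Phen. The fatostatin value thus lay within the range of the other compound libraries and below the IL4 library. Its DNA-binding partners were closer to level: Rfx5 at 24.4 and 19.8 CPM, Nfya at 175 and 213 CPM and Nfyb at 13.3 and 12.2 CPM.

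The surface chains were each lower by about the same ratio. H2-Aa was at 29.6 CPM with IL4 and 13.8 CPM with fatostatin (-1.09, interval -1.30 to -0.89). H2-Ab1, which encodes its partner chain, was at 36.4 and 17.5 CPM (-1.05, interval -1.24 to -0.88), and H2-Eb1 at 15.8 and 7.76 CPM (-1.02, interval -1.31 to -0.76). With betulin, 25-HC, PF429424 and 1,10-Phen, H2-Aa was at 15.3, 9.43, 11.2 and 4.66 CPM. In the same order H2-Ab1 was at 19.6, 11.8, 14.3 and 22.6 CPM and H2-Eb1 at 8.86, 5.28, 6.65 and 3.11 CPM. For each of these chains the IL4 library was the highest and the fatostatin value lay within the range of the other compounds. Cd74, the invariant chain that guards the groove until peptide is loaded, was at 408 and 212 CPM, just short of 2-fold (-0.94, interval -0.996 to -0.89). The peptide-exchange chains H2-DMa and H2-DMb1 were at -0.70 and -0.29, and H2-DMb2, a close copy of H2-DMb1 with which it may share counts, at -1.13.

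Genes of the pathway that serve the lysosome more widely did not share the low ratios. Ctss, a protease that trims the invariant chain, was at 2729 and 2882 CPM, and Ifi30, a lysosomal thiol reductase, at 494 and 524 CPM. March1, a ligase that removes class II from the surface, was at 69.6 and 46.2 CPM (-0.59). In total 5 of 17 compared genes were called lower, against 1.06% of all genes, and none was called higher. Of the 17, 12 lay below 0, and the median was -0.30, or -0.64 without the expression filter, which adds H2-Eb2, H2-Oa and H2-Ob. The calls of H2-Eb1 and H2-DMb2 are lost with a prior count of 10 or with FPKM, and that of Ciita with FPKM. Dendritic cell markers, which could carry class II transcripts, summed to 1162 and 1219 CPM, most of it Itgax. Of the 6 compared, 3 lay above 0 and 3 below, none was called, and the median was 0.05. Batf3, a marker of this list, was at 10.9 and 10.8 CPM. Ccr7 had 10 counts with IL4 and 0 with fatostatin, Siglech had 2 and 0, Flt3 was at 0.652 and 0.377 CPM and Zbtb46 at 2.19 and 2.49 CPM. The part of such cells in the class II values was not tested.

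**Figure D3:**
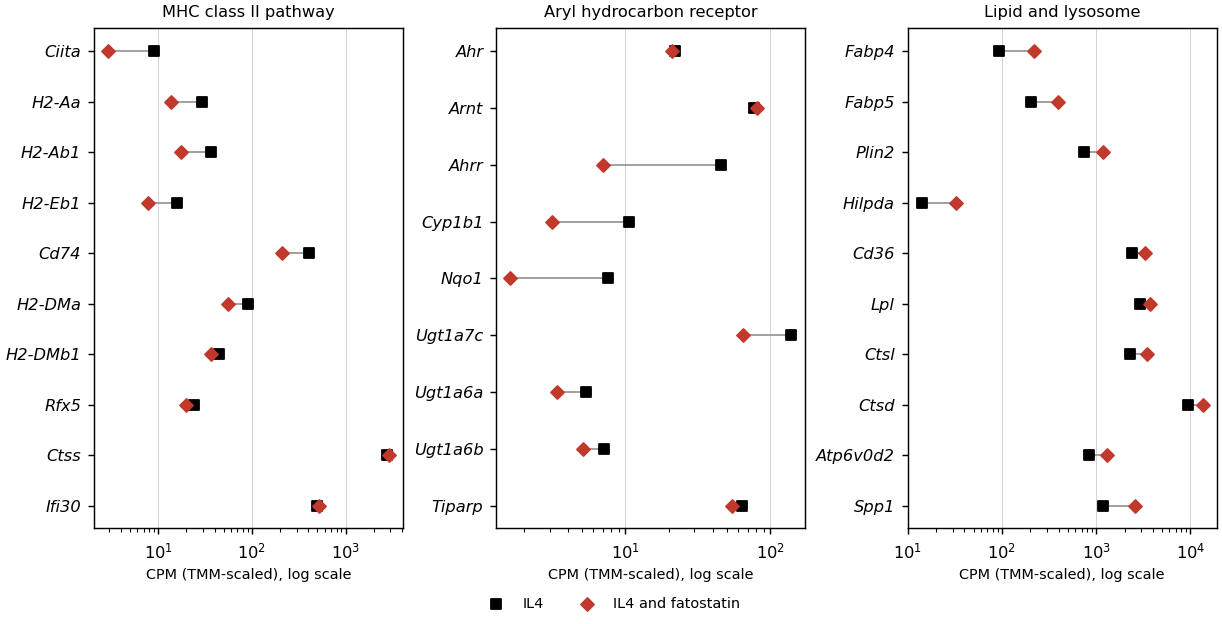
CPM on a log scale (horizontal axes) of selected genes (rows) with IL4 (black squares) and with IL4 and fatostatin (red diamonds), 1 library each, for the MHC class II pathway, the aryl hydrocarbon receptor pathway and lipid and lysosomal genes. Ciita and the surface chains shift left while Ctss and Ifi30 stay in place, Ahr and Arnt stay in place while Ahrr shifts from 46.01 to 7.06 CPM, and every gene of the right panel shifts right.

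The promoters of H2-Aa and H2-Eb1 are shown because NF-Y is known to bind their CCAAT box. Capitals mark CCAAT or its reverse complement in the 250 bases before the RefSeq start site (GRCm38.p6). H2-Aa lies on the minus strand at chr17:34287824-34288073 with 1 match, 48 bases before the start site, and H2-Eb1 on the plus strand at chr17:34305617-34305866 with 2, at 59 and 35 bases. GENCODE vM21 also lists a protein-coding start of H2-Eb1 150 bases downstream, so distances from the start in use may be larger.
H2-Aa promoter: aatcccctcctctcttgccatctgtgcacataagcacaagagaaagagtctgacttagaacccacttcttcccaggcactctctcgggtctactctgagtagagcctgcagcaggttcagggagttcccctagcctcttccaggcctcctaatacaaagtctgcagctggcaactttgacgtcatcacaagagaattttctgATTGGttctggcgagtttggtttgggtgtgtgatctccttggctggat
H2-Eb1 promoter: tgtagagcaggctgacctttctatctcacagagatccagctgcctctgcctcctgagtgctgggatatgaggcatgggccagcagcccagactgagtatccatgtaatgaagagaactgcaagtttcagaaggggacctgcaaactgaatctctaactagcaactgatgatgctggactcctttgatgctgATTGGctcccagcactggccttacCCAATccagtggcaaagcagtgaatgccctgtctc
CCAAT was found in 35.6% of the 12227 promoters, and H2-DMb1 and H2-DMb2 held 1 match each. H2-DMa had 1 window with no match and 1 with a match 198 bases before the start site.

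MHC class I genes lay near their IL4 level, and costimulatory ligands lay on both sides of it. H2-K1, H2-D1 and B2m were at 584, 1245 and 1175 CPM with IL4 and at 597, 1305 and 1227 CPM with fatostatin. Of 19 class I genes 2 were called lower, against 1.06% of all genes, and the median was 0.02. The 2 are H2-Q6 and H2-Q7, near-identical copies whose counts are uncertain and whose calls are lost with FPKM. Icosl, the ligand of ICOS on T cells, was lower at 6.43 and 2.64 CPM (-1.26, interval -1.76 to -0.83), a call lost with FPKM. Cd80, a CD28 ligand, was at 15.4 and 25.1 CPM, the highest of the 6 libraries.

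Interferon-linked genes were counted in a list of GTPases and a list of antiviral genes, and no test compared them. The list of guanylate-binding and immunity-related GTPases, effectors best known for their response to interferon gamma, had 12 of 14 members below 0 and a median of -0.37. Interferon regulatory factors such as Irf1 are counted in it. Gbp3 was the 1 called lower, against 1.06% of all genes, at 7.73 and 2.54 CPM (-1.57). Irf1, a transcription factor upstream of Ciita and of the GTPases of the list, was at 98.7 and 70.7 CPM. Of 37 antiviral genes none differed 2-fold, but 27 lay above 0, the median was 0.25, and the fatostatin library was the highest of 6 for 18. The summed antiviral level was 1841 and 1831 CPM, and 10 of the 37 lay below 0, the lowest being Ly6e at 569 and 391.9 CPM (-0.54). Among those above 0, Slfn5 was at 78.1 and 137 CPM, Rtp4 at 7.31 and 12.8 CPM, Oasl2 at 31.1 and 47.5 CPM and Irf7, a factor that amplifies interferon, at 22.4 and 33.3 CPM.

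Genes of the IL4 programme lay on both sides of their IL4 level. None of 22 genes of the IL4 receptor and its factors differed 2-fold: Il4ra was at 93.98 and 91.2 CPM, Stat6 at 263 and 257 CPM and Irf4 at 85.04 and 70.4 CPM. Bhlhe41, a transcription factor, had the highest log2 ratio among them, 0.84, with 21.8 and 39.2 CPM. Of 36 alternative activation genes 19 lay above 0 and 17 below, and their median of 0.04 turned to -0.01 with library totals or FPKM and to -0.0018 with no filter or a minimum CPM of 5. Among these genes 2 were called higher, the chemokines Ccl7 and Ccl8, and 1 lower, Ptgs1, against 0.874% and 1.06% of all genes.

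The members best known for alternative activation were split. Arg1, arginase, was at 3573 CPM with IL4 and 5169.7 CPM with fatostatin, Chil3 at 3206 and 5199.7 CPM, and the mannose receptor Mrc1 at 2071 and 2479 CPM. Tgm2, a transglutaminase, was at 814 and 1349 CPM, the highest of the 6 (0.73). On the other side Retnla, a resistin-like protein, was at 471 and 318 CPM, and the ribonuclease Rnase2a at 233 and 146 CPM (-0.68). Chil3 and Rnase2a have close copies in the genome, among which estimated counts can be shared. Arg2, the mitochondrial arginase, was at least 2-fold higher: it was at 9.59 CPM with IL4 and 23.95 CPM with fatostatin, and at 5.205, 3.42, 2.86 and 6.11 CPM with betulin, 25-HC, PF429424 and 1,10-Phen (1.31, interval 1.08 to 1.56). The fatostatin library was thus the highest for Arg2 and the IL4 library the next. Smox, which oxidises spermine, was at 57.4 and 32.4 CPM, the lowest of the 6.

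Secreted signals of the inflammatory kind were higher more often than lower. Of 19 chemokines 3 were at least 2-fold higher, against 0.874% of all genes, none was lower and 15 lay above 0, with a median of 0.45. Ccl7 and Ccl2, which draw monocytes through CCR2, were at 89.1 and 142 CPM with IL4 and at 204 and 266 CPM with fatostatin, log2 ratios of 1.197 (interval 1.12 to 1.28) and 0.90. Ccl6 was at 521 and 899 CPM, above every other library. Ccl5 was at 1.02 and 2.21 CPM and Ccl8 at 0.279 and 0.988 CPM, both calls on low levels that are lost with a prior count of 10 or with FPKM, whereas Cxcl16 was at 54.6 and 33.3 CPM (-0.71).

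Among 24 cytokines and growth factors 3 were called higher, against 0.874% of all genes, and none lower. Spp1, osteopontin, was at 1172 CPM with IL4 and 2578 CPM with fatostatin (1.14, interval 1.12 to 1.16). It lay at 2049, 2336, 2964 and 2322 CPM with betulin, 25-HC, PF429424 and 1,10-Phen. Vegfa, the vascular growth factor, was at 46.3 and 103 CPM (1.15), and Hbegf, a ligand of the EGF receptor, at 20.4 and 41.1 CPM (1.01), a call that sits on the 2-fold line and is lost with all 3 other scalings, with a prior count of 10 and with FPKM. Vegfa is also a hypoxia gene. It was the 1 of 34 genes of hypoxia and glycolysis that was called, against 1.93% of all genes, and their median was 0.09.

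Receptors of chemoattractants and other ligands lay on both sides of their IL4 level, with calls in both directions. Ccr2, the receptor of Ccl2 and Ccl7, was at 38.1 CPM with IL4 and 17.6 CPM with fatostatin (-1.11, interval -1.30 to -0.94), and Cx3cr1, the fractalkine receptor, at 9.08 and 3.11 CPM (-1.52). They were the 2 called of 20 chemoattractant receptors, against 1.06% of all genes called lower, while 11 of the 20 lay above 0, such as Ccrl2 at 0.63, and the median was 0.0091. Ccr2 lay at 9.33, 13.4, 5.81 and 8.62 CPM with betulin, 25-HC, PF429424 and 1,10-Phen, each below the fatostatin value. Among 26 other G protein-coupled receptors 3 were lower, Gpr141, P2ry13 and Adgre4, and 3 higher, against 1.06% and 0.874% of all genes. Gpr141, an orphan receptor, was at 21.4 CPM with IL4 and 3.58 CPM with fatostatin, while the other 4 libraries ranged from 9.14 CPM with betulin to 73.4 CPM with 1,10-Phen. The fatostatin library lay below all of them (-2.55, interval -2.95 to -2.23).

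P2ry13, an ADP receptor, was at 2.84 and 0.612 CPM (-2.05), and its neighbour P2ry12 at 6.05 and 3.15 CPM, short of 2-fold. Those higher were Htr2b, a serotonin receptor, at 2.75 and 8.14 CPM, Gprc5b at 3.03 and 8.42 CPM, and Hcar2, which binds niacin and ketone bodies, at 1.26 and 2.73 CPM. The calls of P2ry13, Adgre4, Cx3cr1, Gprc5b and Hcar2 are lost with FPKM, the last also with a prior count of 10, as is that of Tlr5. In another family, Tlr5, the flagellin receptor, was at 1.54 and 3.48 CPM, the highest of the 6 and at least 2-fold higher. It was the 1 called of the 27 genes of Toll-like receptors and their adaptors, against 1.93% of all genes, while 21 of the 27 lay below 0.

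Genes of prostaglandin and leukotriene metabolism were lower where they differed 2-fold. Ptgs1, cyclooxygenase 1, was at 230.1 CPM with IL4 and 71.9 CPM with fatostatin, and at 117, 112, 99.5 and 110.1 CPM with betulin, 25-HC, PF429424 and 1,10-Phen. The IL4 library was the highest and the fatostatin library the lowest (-1.68, interval -1.76 to -1.59). Alox5, which opens the leukotriene pathway, was at 8.43 and 3.06 CPM (-1.43), and Hpgd, which inactivates prostaglandins, at 24.5 and 12.05 CPM (-1.02). These are the 3 called of 16 genes, against 1.06% of all genes called lower. Hpgd lay at 2.86, 1.05, 1.58 and 0.911 CPM with betulin, 25-HC, PF429424 and 1,10-Phen, each below the fatostatin value. Of the 16, 11 lay below 0, with a median of -0.23, and the highest ratio was that of Ptges, a prostaglandin E synthase, at 0.838 and 1.74 CPM (0.98), past 2-fold with a prior count of 0.5. With FPKM the calls of Alox5 and Hpgd are lost, the latter also with a prior count of 10.

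Among genes with a mean CPM of at least 50, the lowest ratio belonged to Mmp8, a collagenase that neutrophils store. It was at 527 CPM with IL4, 96.7 CPM with fatostatin, 460.4 CPM with betulin, 456 CPM with 25-HC, 382 CPM with PF429424 and 832 CPM with 1,10-Phen. All libraries but that of fatostatin were high, and the log2 ratio was -2.45 (interval -2.52 to -2.38). Other neutrophil markers did not share the low level: without Mmp8 the list summed to 300.1 CPM with IL4 and 383 CPM with fatostatin, and 11 of these 13 compared genes lay above 0. With it the sums were 828 and 480.1 CPM. S100a8 and S100a9, which belong to these markers, were at 21.1 and 53.8 CPM with IL4 and at 25.4 and 65.3 CPM with fatostatin. Of the 18 other metalloproteinases and inhibitors compared none was called.

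In the matrix, Vcan, the proteoglycan versican, was at 32.9 and 6.35 CPM (-2.36, interval -2.65 to -2.11). Tgfbi, an adhesion protein of the matrix, was at 243 and 109.5 CPM (-1.15). Vcan, Ccr2 and Ly6c2 are also markers of monocytes, and Ly6a, a surface antigen of the same family as Ly6c2, was at 9.31 and 1.32 CPM (-2.73). Of the 12 monocyte markers 3 were called lower, Vcan, Ccr2 and (lost with a prior count of 10 or FPKM) Ace, against 1.06% of all genes, and 7 lay below 0, with a median of -0.05; their sum of 4619 and 6528 CPM is carried by Chil3 and Fn1, and Ly6c2 was at 5.12 and 5.79 CPM. The part of monocytes in the values of Vcan and Ccr2 was not tested.

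**Figure D4:**
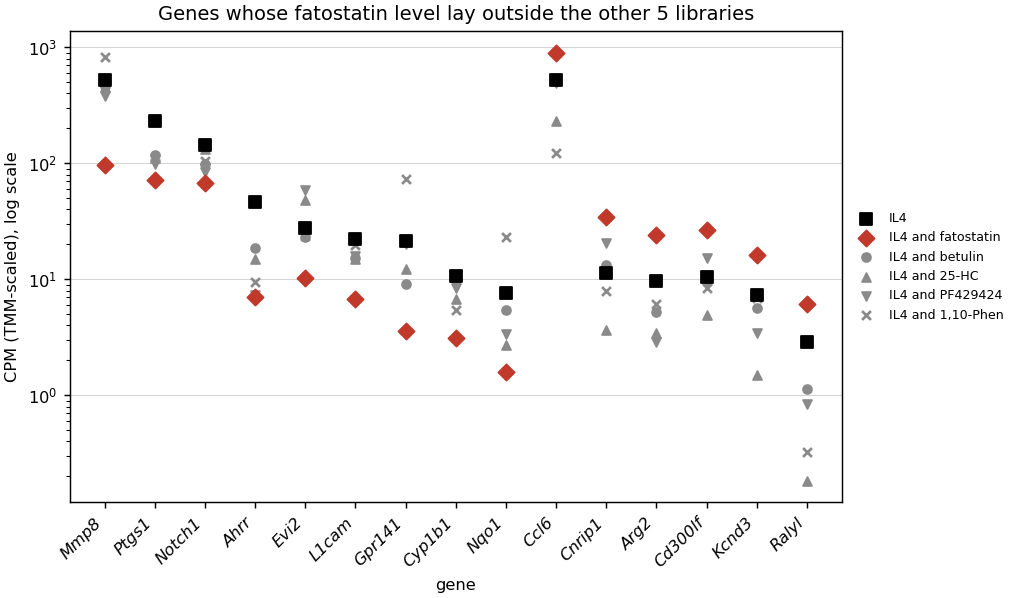
CPM on a log scale (vertical axis) in each of the 6 libraries, 1 per treatment, for 15 genes (horizontal axis) at which the fatostatin library (red diamonds) lay outside the other 5; black squares are the IL4 library and grey symbols the other compounds. Mmp8 lay at 96.7 CPM with fatostatin against at least 382 CPM elsewhere, and Arg2 at 23.95 CPM against at most 9.59 CPM elsewhere.

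For most genes that differed 2-fold, the fatostatin library was not the extreme of the series. It was the highest of the 6 for 41 of the 104 higher genes and the lowest for 39 of the 126 lower genes, and over all 11898 genes it was the highest for 1325 and the lowest for 1236. For 12 higher and 9 lower genes it lay at least 2-fold outside the range of the other 5. L1cam, an adhesion molecule, was at 22.1 CPM with IL4, 6.82 CPM with fatostatin and between 14.9 and 19.9 CPM in the other 4, and Evi2, listed under that symbol in the tables, was at 27.5, 10.3 and between 23.2 and 58.7 CPM. On the high side, Kcnd3, a potassium channel, was at 7.26 CPM with IL4, 16.1 CPM with fatostatin and at most 6.86 CPM in the other 4 (a call lost with FPKM). Outside the other 5 by less than 2-fold, Cd300lf, an inhibitory receptor of myeloid cells, was at 10.5, 26.5 and at most 15.4 CPM. By a like margin Cnrip1, a cannabinoid receptor-binding protein, was at 11.3 and 34.3 CPM, with 20.4 CPM in the PF429424 library as the next highest.

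Leaving aside genes under 50 counts or a CPM of 5 in both libraries, the highest ratio was that of Bex1, a small X-linked gene of the BEX and TCEAL family. It had 158 counts with IL4 and 1130 with fatostatin, or 7.36 and 53.2 CPM (2.84, interval 2.61 to 3.10), and lay at 22.9, 6.97, 88.9 and 1.82 CPM with betulin, 25-HC, PF429424 and 1,10-Phen. The fatostatin library was thus the next highest after that of PF429424. Its neighbours on chromosome X were also above their IL4 level, short of 2-fold: Tceal9 was at 67.5 and 132 CPM, Tceal8 at 45.8 and 76.5 CPM and Bex3 at 18.95 and 31.8 CPM, each the highest of the 6. Of 6 compared family members 5 lay above 0. Dio2, the deiodinase that activates thyroid hormone, was at 7.17 and 18.9 CPM (1.39), and the thyroid hormone receptor gene Thrb at 2.28 and 4.94 CPM (1.08). Both calls are lost with FPKM, and that of Thrb also with a prior count of 10. Dio2 lay at 67.9, 94.4, 67.8 and 15.6 CPM with betulin, 25-HC, PF429424 and 1,10-Phen. Of the 14 compared thyroid hormone and retinoid genes 3 were called higher, against 0.874% of all genes, and none lower. Of these 14 genes 7 lay above 0 and 7 below, from -0.56 to 1.72, with a median of 0.0054.

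Genes of cell division lay below their IL4 level by less than 2-fold. All 48 compared genes of G2 phase and mitosis lay below 0, none was called, and the median was -0.45. The proliferation marker Mki67 was at 571 CPM with IL4 and 379 CPM with fatostatin, topoisomerase Top2a at 289 and 183 CPM, and the kinesin Kif15 at 41.6 and 25.7 CPM. For all 48 genes the fatostatin value lay within the range of the other 5 libraries; the summed level was 3525 CPM with IL4, 2515 with fatostatin, 2958 with betulin, 2027 with 25-HC, 1578 with PF429424 and 439 with 1,10-Phen. Of 38 DNA replication genes 36 lay below 0, with a median of -0.23. Rrm2, a ribonucleotide reductase subunit, was at 84.5 and 59.4 CPM, while Dut and Cdt1 were the 2 above 0, at 0.39 and 0.23.

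**Figure D5:**
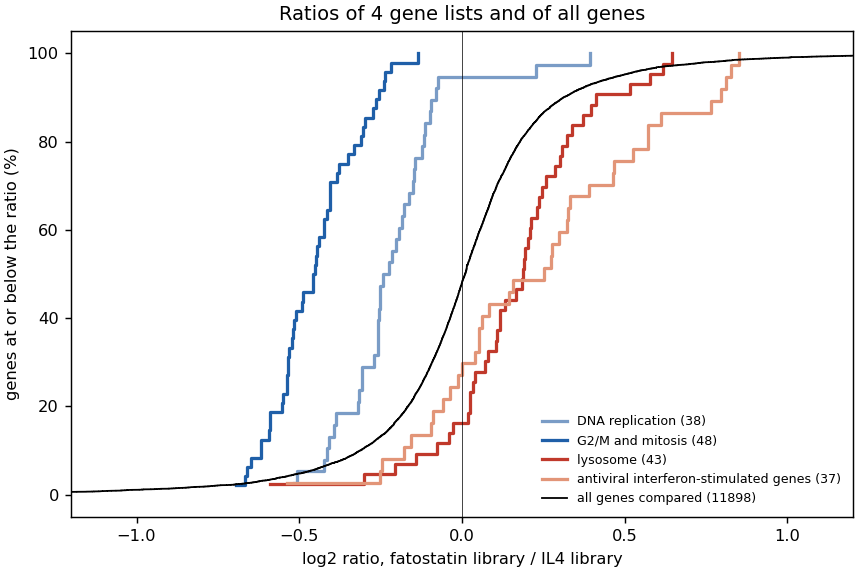
The share of genes (vertical axis, percent) at or below each log2 ratio of the fatostatin to the IL4 library (horizontal axis) for 4 gene lists and for all 11898 genes compared (black). The G2/M line ends left of 0 and the DNA replication line lies left of the black line over most of its course, while the lysosome and antiviral lines lie to its right over most of theirs.

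Stress and housekeeping lists had medians near 0, though members of several lay mostly on the same side of it. None of 28 genes of the ATF4 response, 24 endoplasmic reticulum chaperones, 20 heat shock chaperones or 18 genes of p53 and its targets differed 2-fold. Their medians were 0.12, 0.11, 0.10 and -0.005, and in that order 19, 19, 16 and 9 genes lay above 0. Pdia4, a disulfide isomerase, was at 562 and 820.4 CPM, the highest of the 6. The 40 oxidative phosphorylation genes had a median of 0.0022, with 21 above 0 and 19 below. The 43 cytosolic ribosomal proteins had a median of -0.09, with 36 below 0 and 7 above, and neither list held a call.

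Some of the most extreme ratios belong to genes listed at 0 in 1 library, for which only a bound can be given against the floor of 3 counts. Zfp967 had 178 counts with IL4 and 0 with fatostatin, at least 58.7-fold lower, and H2-Q6 had 16 and 0, at least 5.28-fold lower. Both have near-identical relatives among which estimated counts can be shifted, so these differences are uncertain.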

How the data were processed

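RNA of mouse bone-marrow-derived macrophages was sequenced in 6 libraries, 1 per treatment. Per the file headers, the authors deposited for each gene an expected count, which is an estimated count unscaled between libraries, and FPKM, which is scaled by transcript length and depth. Per the submitters' processing notes, the tools were RSEM 1.2.12, HISAT2, Bowtie2 and DESeq2, with no role stated; strandedness was not given in the sources used here, so overlapping genes on opposite strands may share counts. Positions and promoter sequences are from RefSeq (GRCm38.p6), and 9574 of the 11898 compared genes matched a promoter.

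Expected counts were rounded and scaled with TMM factors (edgeR 4.0.16, R 4.3.3). A gene was kept when 1 or more of the 6 libraries reached a CPM of 1, and log2 ratios used a prior count of 2. Library totals lay between 20181396 and 21169667 counts. Intervals were computed with SciPy 1.17.1. The procedure was checked on counts simulated with counting error alone, which cannot show how calls behave under variation between cultures. Members of the comparison, the 55 gene lists and the naming rule were chosen with earlier results of these data known. Genes named are list members called or among the 5 largest ratios of a list, all with a CPM of 5 or more, the 25 highest and lowest ratios with 50 counts and that CPM, the 10 genes farthest above and below the other 5 libraries, and 29 fixed genes. The text leaves out many genes of the rule, and 46 other compared genes, such as Mki67, Notch1, H2-DMa and calls on low levels, and the cell type markers were named after their values were seen. The 8 alternatives were DESeq2 1.42.0 size factors, library totals, TMM from both libraries alone, no expression filter, a stricter filter at a CPM of 5, a prior count of 0.5 or 10, and log2(FPKM + 1). Mitochondrially encoded genes were not analysed here.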

Additional observations from a re-analysis of the deposited data

How the results depend on the processing

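The median stayed on the same side of 0 under all 8 alternatives for the cholesterol synthesis, aryl hydrocarbon receptor, MHC class II and metal response lists. That of alternative activation lay on either side of 0, as given above. The 104 genes called higher became 166 with no filter, 42 with a CPM of at least 5, 52 with a prior count of 10 and 23 with log2(FPKM + 1), and the 126 called lower became 64, 76 and 47 with the last 3 of these. The cholesterol synthesis median of -0.05 became -0.11 with library totals and -0.0875 with FPKM, and the metal response median became 0.03 and 0.02. Library totals moved the median of all genes to -0.05, so ratios near 0 carry no direction. This holds for the medians of cholesterol synthesis and metal response. Of 65 genes named with a call, 15 lost it with a prior count of 10 and 28 with FPKM, where the pseudocount shrinks ratios of low genes by construction. DESeq2 factors and TMM from both libraries alone each ended 1 call (Hbegf) and library totals 2 (Hbegf and Ccl5). No paired analysis was possible because each treatment has 1 library. With 1 library a side, variation between cultures is unknown, and for genes near the floor of 3 counts a difference was not detectable at this depth.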

Other observations

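Other genes with calls are given here by their ratios, without a common theme. Notch1, a receptor of cell-to-cell signalling, was at 143 CPM with IL4 and 67.5 CPM with fatostatin, the lowest of the 6 libraries (log2 ratio -1.08, interval -1.18 to -0.995). Plxdc2, a membrane protein of the plexin domain family, was at 141 and 56.4 CPM (-1.32), and Il21r, the IL21 receptor, at 66.6 and 29.2 CPM, again the lowest of the 6 (-1.19). Itga1, an integrin chain that binds collagen, was at 16.7 and 5.04 CPM (-1.71), and Sema6d, a semaphorin, at 39.7 and 11.2 CPM (-1.82). Cd34, a surface protein of blood progenitors and vessels, was at 24.4 and 8.85 CPM (-1.46), and Kcnj10, a potassium channel, at 12.7 and 2.64 CPM (-2.22). For Plxdc2, Itga1, Sema6d, Cd34 and Kcnj10 the IL4 library was the highest of the 6, and the fatostatin library was not the lowest. Sema6d lay at 8.91, 4.83, 7.19 and 5.46 CPM with betulin, 25-HC, PF429424 and 1,10-Phen.

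On the high side, Eef1a2, a translation factor usually found in neurons and muscle, was at 20.6 and 51.95 CPM (1.33). Dach1, a transcriptional regulator, was at 6.33 and 15.01 CPM (1.23), and Jcad, a protein of endothelial junctions, at 16.95 and 39.8 CPM (1.23). Pla2g5, a secreted phospholipase, was at 9.73 and 21.3 CPM, the highest of the 6 (1.12). Npas2, a partner of the clock factor BMAL1, was at 0.605 and 1.55 CPM (1.23). It was the 1 called of 17 clock genes, against 1.93% of all genes, and their median was 0.08. The calls of Dach1, Jcad, Pla2g5 and Npas2 are lost with log2(FPKM + 1), and that of Npas2 also with a prior count of 10. Of 16 complement genes, 8 Fc receptors and 26 immediate early genes none differed 2-fold. Among 27 scavenger and lectin receptors only Clec4n was called, against 1.93% of all genes, and it was lower at 17.98 and 7.81 CPM (-1.19).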
